A study of Drosophila melanogaster with 19 samples.

Results

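The data compared here are cell cycle-arrested Drosophila melanogaster embryos collected 70 minutes after the completion of mitosis 11 (C12-70min) with arrested embryos collected at 50 minutes (C12-50min). They are 4 of the 19 embryos in the series, 2 for each time, and all 17735 genes of the expression table were compared. The 4 embryos came from flies that carry a red fluorescent H2AvD histone, and all 4 had been injected with double-stranded RNA against CycA, CycB and CycB3, which holds the syncytial nuclei in the interphase of cycle 12. Polyadenylated RNA of each single embryo was sequenced. The other conditions are arrested embryos at 15 and 30 minutes and control embryos of cycle 12, cycle 13, early cycle 14 (control C14E) and late cycle 14 (control C14L), and they serve only as a scale here. The labels give neither the sex of the embryos nor the mother of each, so the spread between 2 embryos of a condition is all the replication there is.

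In a fly embryo the first nuclear cycles run on RNAs that the mother loaded into the egg. These maternal RNAs are cleared in waves by RNA-binding proteins such as Smaug and Pumilio, while the embryo's own genes are switched on in parallel, first a small early group and later a broad one, at the mid-blastula transition. The zygotic genes include the gap, pair-rule and segment polarity genes that divide the anterior-posterior axis, the targets of the Dorsal gradient that set up mesoderm, neuroectoderm and dorsal ectoderm, and genes that build the cell membranes of the blastoderm. The comparison asks what 20 more minutes of arrest add to, and remove from, the RNA of an embryo that has not divided since cycle 12.

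The deposited values are on a log2 scale, of the mean CPM of a condition plus 1, where CPM is a gene's reads scaled to a common library total. The means carry 9 decimals, and the whole reads of each embryo could be solved from them. By the reads assigned to genes, the embryos are named 50a (48334667 reads), 50b (46082668 reads), 70a (52804462 reads) and 70b (45152010 reads). At C12-50min a single pair of whole reads remained for 91.8% of the genes that reached 10 CPM, but at C12-70min for only 63.5%, because above about 100 CPM several pairs give the same mean. For those genes the range over all solutions is given instead, and 96.1% of the genes at this level had solutions in each condition. Embryo 50a lay apart from 50b. Of the 4402 solved genes that reached 10 CPM in one of the 50-minute embryos, 1021 were more than 1.5-fold higher in 50a and 121 more than 1.5-fold higher in 50b. At C12-70min 180 of 3143 such genes were more than 1.5-fold higher in 70a and 554 in 70b. Markers of other tissues were low. Of 11 follicle cell and yolk protein genes 10 were under 1 CPM in both conditions, their summed means were 1.35 and 3.17 CPM, and all 8 neuron and muscle markers together had 13.1 and 16.1 CPM.

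The 3 cyclins targeted by the RNA interference were read first, as a check of the labels. CycA (FBgn0000404) had 14.42 and 12.48 CPM in embryos 50a and 50b and 22.6 and 35.1 CPM in 70a and 70b, against a mean of 2626 CPM in control C12. CycB3 (FBgn0015625) had 18.2 and 23.0 CPM at 50 minutes and 30.5 and 31.7 CPM at 70 minutes, against 1277 CPM in control C12. CycB (FBgn0000405) had 34.2 and 39.1 CPM at 50 minutes, and at 70 minutes 94.1 to 133 CPM in 70a and 17.8 to 57.1 CPM in 70b. All 3 were thus far below the control in each of the 4 embryos. The means of CycA and CycB were 2.14-fold and 2.06-fold higher at 70 than at 50 minutes and that of CycB3 1.51-fold. The 70-minute embryos of CycA and CycB3 lay above both 50-minute embryos, but neither difference passed the limma test (adjusted p 0.141 and 0.285). The embryos of CycB were not apart in every solution.

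Among all 17735 genes, 2058 (11.6%) had a mean more than 1.5-fold higher at C12-70min and 1200 (6.77%) a mean more than 1.5-fold lower, on the log2(CPM+1) scale, which understates changes of low genes. Among the 4903 genes that reached 10 CPM at 50 or 70 minutes the balance was the other way, with 688 (14%) higher and 993 (20.3%) lower. A count that uses the spread asks whether the lower 70-minute embryo lay above the higher 50-minute embryo, or the reverse, in every solution. By this rule 3477 of 17540 genes (19.8%) were higher with the embryos apart and 1938 (11.0%) lower. Of 4708 such genes that reached 10 CPM, 719 (15.3%) were higher and 1411 (30.0%) lower. With 2 embryos at each time, such an order often arises without any difference between the times. The count is thus a description and not a test. Limma with Benjamini-Hochberg adjustment, on the 6426 genes with 1 solution in each condition and at least 1 CPM in 1 embryo, called 73 genes higher (1.14%) and 198 lower (3.08%) at an adjusted p below 0.05. The median difference of the called genes was 2.21 for those higher and -1.60 for those lower, and all of them had their embryos apart. With 2 embryos at each time a call nearly requires both, so neither is separate support. Abundant genes of C12-70min are missing from this fit, so a gene without a call may only have been left out. The count of higher genes depended on the embryos used and on the scaling, and the cause was not tested. With each embryo centred on the median of its abundant genes, limma called 980 genes higher and 236 lower. A fit without 1 embryo leaves 1 embryo at 1 of the times, so its spread comes from the other time alone. The 4242 genes that reached 10 CPM at both times had a median difference of -0.11, and of the 121 genes chosen for naming, only cad, Act5C, Cdc6 and Hsp68, whose differences lie within this shift, changed sign when it was taken out. The list medians between -0.11 and 0 that are given below (neuroectoderm, pole cell, heat shock and mitochondrial ribosomal protein genes) lie within it and carry no direction. In the text, rose and fell are used of limma calls alone, and higher and lower of any difference of means. In whole embryos, fewer cells of a type and less RNA per cell cannot be told apart, and CPM gives shares of the reads, not amounts of RNA per embryo.

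**Figure D1:**
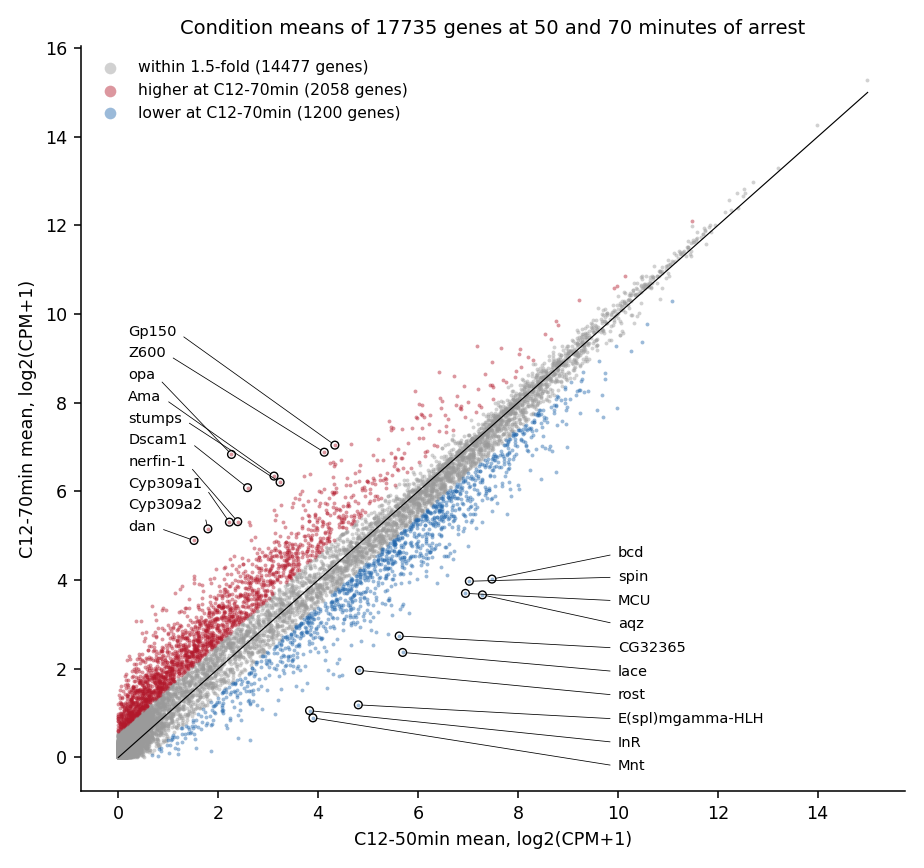
Each point is 1 of 17735 genes, at its mean in C12-50min (x axis) and C12-70min (y axis), both log2(CPM+1); colours mark differences above 1.5-fold and circles the 10 genes with the largest higher and the 10 with the largest lower means among genes that reached 10 CPM at one of the times. The higher genes (2058) crowd at low levels and the lower genes (1200) at intermediate levels.

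The largest difference of all was that of opa (odd paired, FBgn0003002, chromosome 3R, 4852813 to 4869979 in dm6), a zinc finger factor of the pair-rule system that acts late in segmentation. It had 4.97 CPM in 50a and 2.65 CPM in 50b, and 68.5 to 108 CPM in 70a and 118 to 158 CPM in 70b. The mean went from 3.81 to 113 CPM, a log2 difference of 4.57, and no solution brings the embryos of the 2 times together. At C12-30min opa had 5.80 CPM, so nearly all of its level at 70 minutes was added after 50 minutes. Its means in control C14E and control C14L were 405 and 376 CPM.

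Among the 10 genes with the largest higher difference, Dscam1 (FBgn0033159, chromosome 2R, 7317924 to 7381899), an immunoglobulin superfamily receptor of axon guidance, had 6.97 and 3.04 CPM at 50 minutes and 78.2 and 55.5 CPM at 70 minutes. It rose by 3.56 ± 0.43 (SE) on the log2 scale, with an adjusted p of 0.0153 by limma. Ama, which encodes the secreted immunoglobulin-domain protein Amalgam, had 11.1 and 4.27 CPM and then 85.7 and 75.0 CPM, and rose with an adjusted p of 0.0166. Gp150, a leucine-rich transmembrane protein that acts in Notch signalling, had 27.5 and 10.9 CPM at 50 minutes, and 115 to 154 CPM in 70a and 108 to 147 CPM in 70b. Its lowest 70-minute value was thus well above both embryos of 50 minutes.

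The embryos of dan, the CENPB-domain factor distal antenna, held 3.50 and 0.217 CPM at 50 minutes and 24.2 and 33.2 CPM at 70 minutes (adjusted p 0.0214 by limma). Those of nerfin-1, a zinc finger factor of young neurons, held 2.23 and 6.25 CPM and then 49.6 and 28.1 CPM (adjusted p 0.0214). For stumps (Dof), the adaptor through which fibroblast growth factor receptors move mesoderm cells, the values were 9.25 and 7.62 CPM and then 42.8 and 103 CPM (adjusted p 0.0195). The 2 embryos of 70 minutes differed more than 2-fold from each other in stumps, yet both lay far above the 50-minute embryos.

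The pair of neighbouring cytochrome P450 genes Cyp309a1 and Cyp309a2 on chromosome 2L rose together. Cyp309a2 had 3.97 and 0.955 CPM at 50 minutes and 46.3 and 23.0 CPM at 70 minutes (adjusted p 0.0214 by limma), and Cyp309a1 had 6.10 and 1.24 CPM and then 50.2 and 27.0 CPM (adjusted p 0.026). Both were scarce in every control condition, with at most 3.72 CPM for Cyp309a2 and 3.02 CPM for Cyp309a1. The last of the 10 was Z600, the gene of the Cdk1 inhibitor Frühstart. Its embryos had 18.4 and 14.5 CPM at 50 minutes, and 36.9 to 76.2 CPM in 70a and 158 to 197 CPM in 70b. Its mean at C12-30min was 60.03 CPM, above that at 50 minutes, but the 30-minute embryos had 106 and 13.7 CPM.

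**Figure D2:**
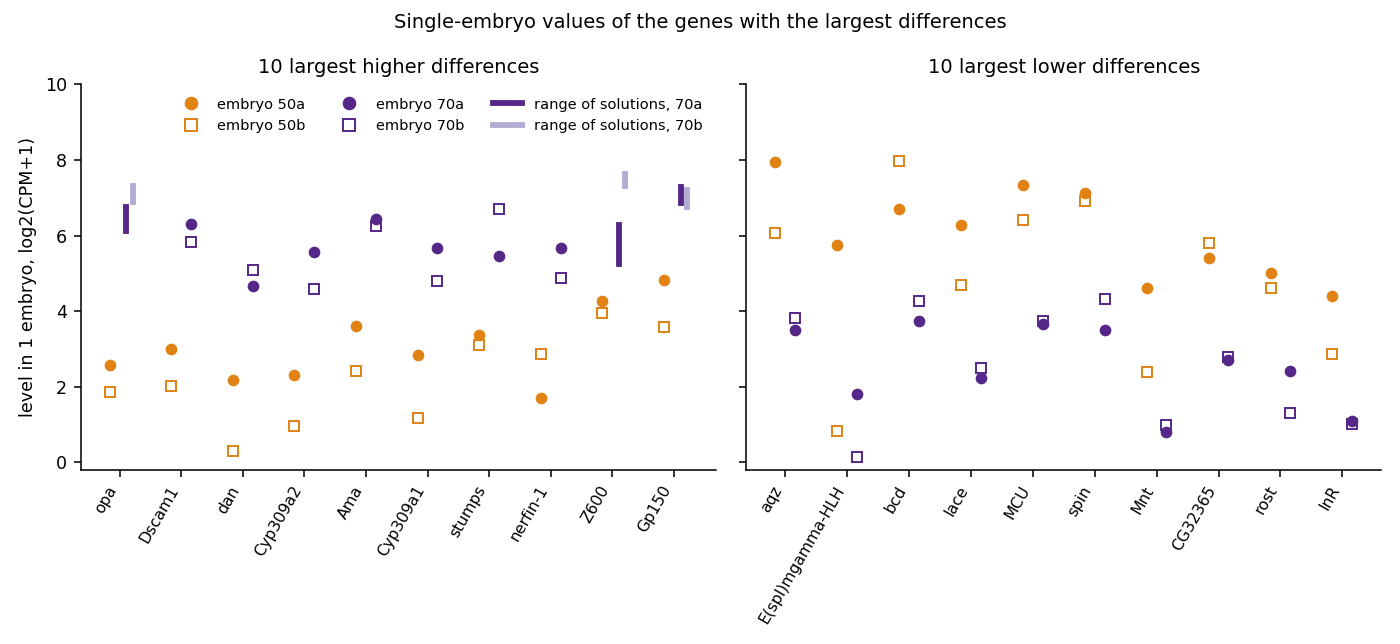
Values of single embryos, log2(CPM+1) on the y axis, for the 10 genes with the largest higher difference (left) and the 10 with the largest lower one (right); symbols are exact values and bars the range of all whole-read solutions. In the left 10 genes both 70-minute embryos lie above both 50-minute embryos, and in 9 of the right 10 both lie below, the exception being E(spl)mgamma-HLH.

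Of the 10 genes with the largest lower difference, bcd, lace, MCU, spin, Mnt, CG32365 and rost are on the study's list of maternal genes. One of them, bcd (bicoid, FBgn0000166, chromosome 3R, 6755842 to 6759466), is the anterior determinant that the mother anchors at the front of the egg. Embryos 50a and 50b held 104 and 251 CPM and embryos 70a and 70b 12.3 and 18.2 CPM. It fell, with a fitted difference of -3.35 ± 0.41 (SE) on the log2 scale (adjusted p 0.0153 by limma). Control C12 had a mean of 330 CPM. The 30-minute arrest had a mean of 215 CPM, with 129 and 301 CPM in its embryos. Embryo 50a lay below each of these values.

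MCU, the channel of the mitochondrial calcium uniporter, had 162 and 83.4 CPM at 50 minutes and 11.6 and 12.4 CPM at 70 minutes (adjusted p 0.0129 by limma). The values of spin (spinster), a lysosomal lipid transporter, were 139 and 119 CPM and then 10.3 and 19.1 CPM (adjusted p 0.0129). For lace, a subunit of serine palmitoyltransferase, they were 76.7 and 24.7 CPM and then 3.67 and 4.65 CPM (adjusted p 0.0214). CG32365 (41.4 and 55.1 CPM, then 5.53 and 5.82 CPM) and rost (31.3 and 23.4 CPM, then 4.34 and 1.46 CPM) fell as well, with adjusted p of 0.0153 and 0.0214 by limma. In each of these 5 genes both 70-minute embryos were far below the earlier pair, though 70a and 70b differed by more than 1.5-fold in spin and rost.

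The other lower genes of the 10 had a different course. The mean of aqz was 671 CPM after 15 minutes, 84.3 CPM after 30 and 155 CPM after 50 minutes of the interphase, and only 11.7 CPM after 70 minutes. Its embryos at 50 minutes were far apart, 245 CPM in 50a and 65.7 CPM in 50b, whereas 70a and 70b held 10.3 and 13.1 CPM (adjusted p 0.0197 by limma). InR, the insulin receptor, had 20.2 and 6.23 CPM and then 1.14 and 1.02 CPM (adjusted p 0.0464), and the repressor Mnt, the partner of Max that opposes Myc, 23.6 and 4.19 CPM and then 0.739 and 0.974 CPM (adjusted p 0.0772). In all 3 the mean at 50 minutes was above that at 30 minutes, and 50a was the higher embryo. The 30-minute embryos were also unlike, at 159 and 9.58 CPM for aqz, 15.4 and 4.13 CPM for InR and 9.88 and 1.08 CPM for Mnt. Without 50a the differences were smaller, at -2.39 in place of -3.62 for aqz, -1.48 in place of -3.00 for Mnt and -1.80 in place of -2.77 for InR. The last, E(spl)mgamma-HLH, is taken up with its family below.

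Along the anterior-posterior axis the gap genes, which draw the broad domains of the blastoderm, were mostly higher at 70 minutes. Of 10 members, 6 were more than 1.5-fold higher and 1 lower, with a median difference of 0.91 against 0 over all genes, and 4 were higher with the embryos apart. The shares higher and apart stand beside the 11.6% and 19.8% of all genes. Of the genes that reached 10 CPM, as all 10 members did, they were 14% and 15.3%. For knrl the embryos had 10.6 and 0.738 CPM and then 28.3 and 32.7 CPM. Its sister kni, a repressor of the abdomen, had 41.8 and 29.4 CPM, and then 109 to 148 CPM in 70a and 140 to 180 CPM in 70b. Kr, of the central domain, had 82.5 and 65.1 CPM, and then 182 to 260 CPM in 70a and 103 to 182 CPM in 70b. The head gap gene ems had 14.7 and 1.13 CPM and then 17.2 and 32.1 CPM. No gap gene was called by limma, in which 6 of the 10 could be fitted. By contrast hb, which is supplied by the mother as well as made by the embryo, had means of 349 and 259 CPM with overlapping embryos.

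The pair-rule genes, which read the gap pattern as stripes, had a median difference of 0.72. Of 9, 5 were more than 1.5-fold higher, none was lower, and 4 were higher with the embryos apart. All 9 reached 10 CPM, and of all genes at that level 14% were higher, 20.3% lower and 15.3% higher with the embryos apart. The repressor gene h (hairy) rose from 11.9 CPM in each 50-minute embryo to 35.8 and 66.2 CPM (adjusted p 0.0299 by limma). The embryos of odd held 26.2 and 12.6 CPM and then 40.1 and 84.9 CPM, and those of slp2 7.99 and 1.13 CPM and then 13.5 and 15.5 CPM. In all 8 pair-rule genes with single values 70b was above 70a, while 50a was above 50b in 7 of them. Of the 3210 genes with single values that reached 10 CPM, 2057 and 2271 had these orders.

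The segment polarity genes act last, and here the list divided by level. Only nkd and ptc reached 10 CPM. The Wnt inhibitor nkd had 24.4 and 12.9 CPM at 50 minutes, and 86.5 to 126 CPM in 70a and 76.4 to 116 CPM in 70b. The Hedgehog receptor gene ptc had 113 and 20.3 CPM, and then 220 to 298 CPM in 70a and 121 to 200 CPM in 70b. The other 6 members stayed below 10 CPM at both times, among them en and wg (chosen here after their values were seen), whose means were 4.31 and 3.65 CPM and 7.04 and 6.88 CPM. The 8 Hox genes were all below 10 CPM. The mean of abd-A was 1.57 and 5.54 CPM, the largest difference among them, with 2.40 and 0.738 CPM in the 50-minute and 6.48 and 4.61 CPM in the 70-minute embryos.

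Across the dorsal-ventral axis the mesoderm genes, targets of high Dorsal, had the highest median of the lists, 1.24, at a pseudocount of 1. At 0.1 the gut and blood genes had a higher one, 1.38 against 1.29, and at 0.001 these (1.59) and the wound and immune genes (1.72) were above the mesoderm genes (1.32). Of 10, 8 were more than 1.5-fold higher and 1 lower, and 8 were higher with their embryos apart. These counts stand beside 11.6%, 6.77% and 19.8% of all genes. Of the 7 that reached 10 CPM, 7 were higher, beside 14% of all genes at that level. The basic helix-loop-helix regulator twi, which starts the mesoderm programme, had 61.5 and 54.4 CPM at 50 minutes, and 106 to 184 CPM in 70a and 157 to 236 CPM in 70b. Mdr49, a membrane transporter that helps guide germ cells, had 71.3 and 49.8 CPM, and then 197 to 354 CPM in 70a and 258 to 415 CPM in 70b. For the cytochrome gene Cyp310a1 the values were 3.56 and 3.36 CPM and then 15.0 and 13.1 CPM, with an adjusted p of 0.0542 by limma. Only stumps passed the test, out of 7 fitted.

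The neuroectoderm genes did not move as a body. Of 11, 4 were more than 1.5-fold higher and 5 lower, beside 11.6% and 6.77% of all genes, and the median was -0.11. Of the 9 that reached 10 CPM, 4 were higher and 3 lower, beside 14% and 20.3% of all genes at that level. The proneural gene l(1)sc fell from 40.9 and 40.2 CPM to 11.7 and 13.8 CPM (adjusted p 0.0339 by limma), and its neighbour sc, which is also an X-linked signal of the sex decision, from 58.8 and 55.5 CPM to 25.7 and 18.8 CPM (adjusted p 0.045). The repressor of Dpp targets brk had 12.703 and 3.52 CPM and then 29.1 and 26.8 CPM, apart but without a call. SoxN had 72.3 and 22.8 CPM and then 109 and 68.2 CPM, and sog, which encodes an antagonist of Dpp, 74.0 and 47.1 CPM and then 46.9 and 64.9 CPM, both with overlap.

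The dorsal ectoderm and amnioserosa genes were likewise mixed, with 6 of 14 more than 1.5-fold higher, 3 lower and a median of 0.28. The shares of all genes were 11.6% higher and 6.77% lower. Of the 11 members that reached 10 CPM, 5 were higher and 3 lower, beside 14% and 20.3% of all genes at that level. The 3 lower ones were peb, scw and tsg. The BMP ligand gene scw, one of the early zygotic genes, had 224 and 347 CPM at 50 minutes, and 54.2 to 93.5 CPM in 70a and 170 to 210 CPM in 70b. For peb, a zinc finger factor of the amnioserosa, the values were 30.3 and 9.11 CPM and then 6.38 and 4.34 CPM. The modulator of BMP transport tsg had 92.5 and 50.7 CPM and then 30.3 and 51.6 CPM, which overlap. The T-box gene Doc1 was on the higher side, with 14.2 and 8.03 CPM and then 23.2 and 20.2 CPM. The means of tld, a protease that frees BMP, were 237 and 308 CPM. Its embryos were not apart in every solution.

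Genes of the gut and blood primordia and of gastrulation were more often higher than lower. The forkhead factor gene fkh of the gut rose from 17.2 and 4.12 CPM to 56.7 and 56.4 CPM (adjusted p 0.0401 by limma). The GATA factor gene srp, of endoderm, fat body and blood, had 79.9 and 53.3 CPM, and then 261 to 379 CPM in 70a and 112 to 230 CPM in 70b. The hindgut gene byn had 59.5 and 19.8 CPM and then 55.7 and 101 CPM, and wntD 7.37 and 6.86 CPM and then 4.39 and 30.5 CPM, so that its higher mean came from 70b alone. GATAe was below 1 CPM. Of the 7 genes of gastrulation and germband extension, 5 were more than 1.5-fold higher and 1, fog, was lower. Of all genes 11.6% were higher and 6.77% lower. Of the 5 members that reached 10 CPM, 3 were higher and 1 lower, beside 14% and 20.3% of all genes at that level. The gene fog, for the ligand that makes cells constrict, had 46.6 and 35.8 CPM and then 18.9 and 17.98 CPM. Traf4 had 126 and 91.6 CPM, and then 240 to 358 CPM in 70a and 210 to 328 CPM in 70b. The Toll-family receptor gene 18w had 38.6 and 18.2 CPM and then 42.6 and 89.8 CPM, and Tollo 41.0 and 18.6 CPM and then 35.1 and 83.0 CPM.

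**Figure D3:**
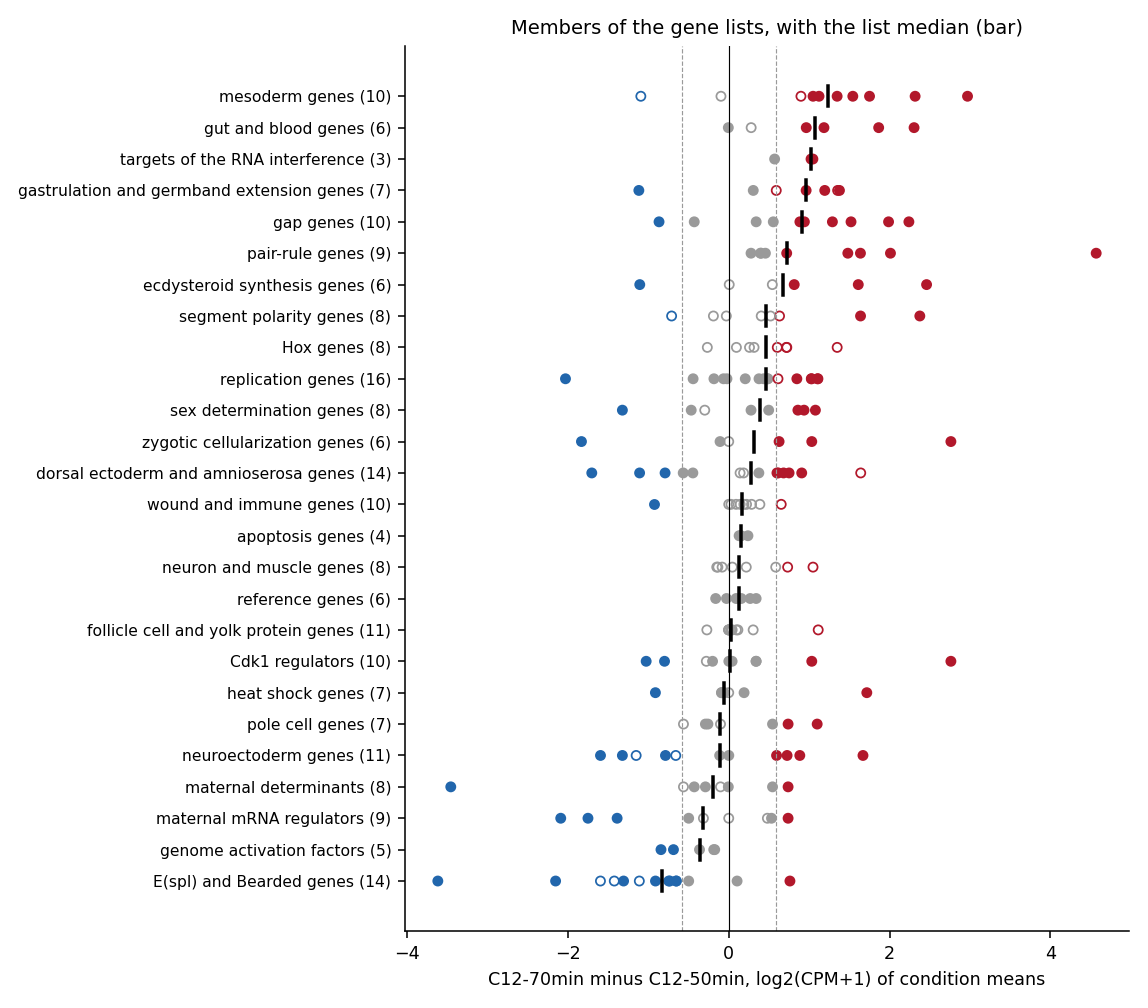
Differences of condition means, C12-70min minus C12-50min on the log2(CPM+1) scale (x axis), of every member of 26 gene lists; red and blue mark differences above 1.5-fold, open symbols genes under 10 CPM in both conditions, dashed lines 1.5-fold and black bars list medians. At this pseudocount of 1 the mesoderm genes have the highest median (1.24) and the E(spl) and Bearded genes the lowest (-0.83).

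The 6 zygotic genes of cellularization and its timing, Z600 among them, did not move together. The gene nullo, whose product stabilises the first furrows, fell from 162 and 217 CPM to 35.6 and 69.5 CPM (adjusted p 0.0214 by limma). The mean of bnk, which times the constriction of the furrows, was 679 and 630 CPM, and that of slam, which is needed for the furrows to grow inward, was 2862 and 4419 CPM, too high to be solved for single embryos. Sry-alpha was listed at 0 in all 8 conditions. It overlaps Sry-beta in the annotation, so the 0 is not read as absence of RNA. Whether reads were lost to the overlap was not tested. The kinase-like gene trbl, whose product blocks Cdc25, had 116 and 76.9 CPM at 50 minutes, and 147 to 226 CPM in 70a and 171 to 250 CPM in 70b. Together with Z600 it was 1 of 2 genes more than 1.5-fold higher in a list of 10 regulators of Cdk1 or of the cell cycle more broadly. The share of all genes was 11.6%.

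The Cdk1 regulators that were lower were twe and Wee1. The RNA of twe, the maternal Cdc25 phosphatase, was at 362 and 354 CPM at 50 minutes, and at 192 to 271 CPM in 70a and 79.8 to 158 CPM in 70b. The mean was 358 CPM at 50 minutes and 347 CPM at C12-30min, so the lower level appeared only at 70 minutes. Wee1, an inhibitory kinase of Cdk1, had 108 and 90.9 CPM and then 49.5 and 64.2 CPM (adjusted p 0.0956 by limma). The remaining 6 genes of that list were within 1.5-fold, among them the cell cycle genes CycE, with means of 168 and 212 CPM, and fzy, with 576 and 501 CPM. Of 16 DNA replication genes, 6 were more than 1.5-fold higher and 7 had their embryos apart on the higher side. These counts stand beside 11.6% and 19.8% of all genes. Of the 14 that reached 10 CPM, 4 were more than 1.5-fold higher, beside 14% of all genes at that level. None of the 10 fitted was called. Orc5 of the origin recognition complex had 6.97 and 3.78 CPM and then 11.3 and 14.2 CPM. The helicase subunit gene Mcm3 had 45.0 and 14.3 CPM and then 66.8 and 63.1 CPM, and the ribonucleotide reductase gene RnrS 27.7 and 12.4 CPM and then 49.1 and 34.9 CPM. The 1 lower member was dup, the fly Cdt1, with a mean of 833 CPM at 50 minutes and of 203 CPM at 70 minutes, but its embryos are not apart in every solution.

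**Figure D4:**
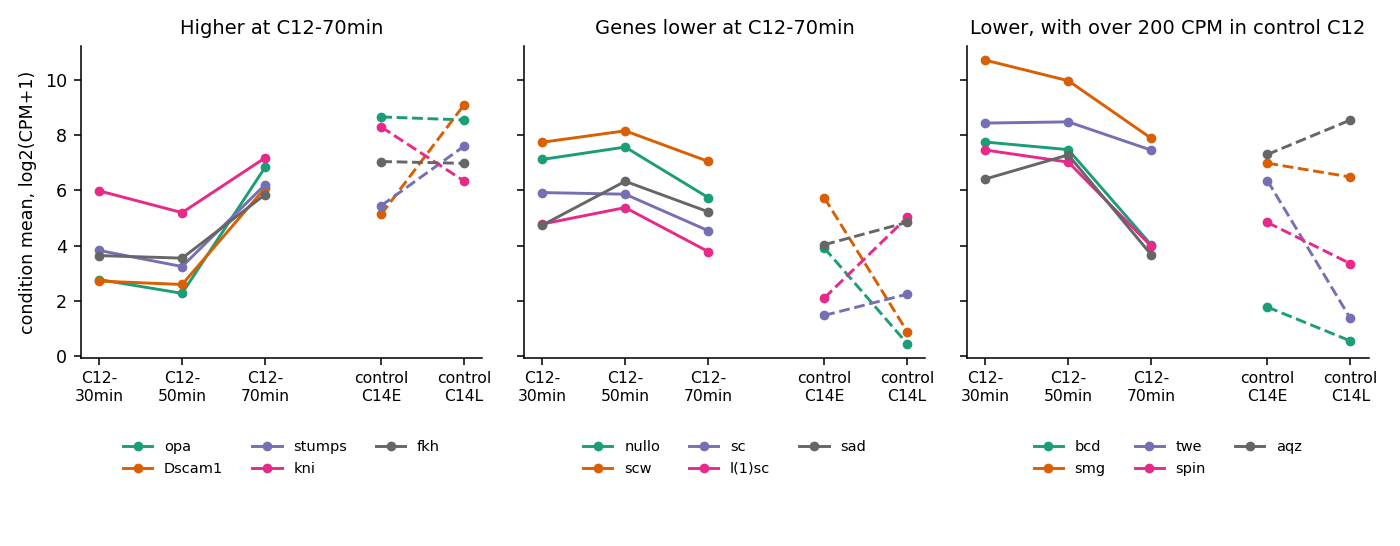
Condition means, log2(CPM+1) on the y axis, of 15 genes over C12-30min, C12-50min and C12-70min (solid lines) and control C14E and C14L (dashed lines). The genes of the left panel lie at their highest arrested level at 70 minutes, and bcd, spin and aqz in the right panel drop to between 11.7 and 15.3 CPM.

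The mean of smg, which encodes Smaug, was 1009 CPM at 50 minutes and 236 CPM at 70 minutes, after 1694 CPM at C12-30min. At 70 minutes 70a held 300.2 to 379 CPM and 70b 94.0 to 173 CPM, and the 50-minute embryos could not be solved. The mean of pum went from 766 to 227 CPM, with embryos not apart in every solution, and that of the DEAD-box gene me31B from 1830 to 1295 CPM. The gene plu, part of the PNG kinase that translates smg RNA, had 14.9 and 16.7 CPM and then 5.38 and 5.47 CPM (adjusted p 0.0898 by limma). Of the 9 regulators 3 were more than 1.5-fold lower and 1, nos, higher, beside 6.77% and 11.6% of all genes. Of the 6 that reached 10 CPM, 3 were lower and 1 higher, beside 20.3% and 14% of all genes at that level. The gene cup was listed at 0 throughout, which is not read as absence of RNA either.

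Among the maternal determinants bcd alone was more than 1.5-fold lower. The posterior and germ plasm RNAs are known to be protected in the pole cells. The values of nos were 125 and 17.7 CPM at 50 minutes and 133 and 107 CPM at 70 minutes, so its higher mean rested on embryo 50b, and without 50b the difference was -0.06. Those of pgc were 42.8 and 10.3 CPM and then 37.6 and 40.7 CPM. In all 7 pole cell genes 50a was above 50b, and the list had a median of -0.10. Over all 16042 genes with single values 50a was above 50b in 8116 and below it in 2509. For tud the embryos were apart, with 13.6 and 5.25 CPM and then 22.2 and 20.5 CPM. The RNA of cad was level, with means of 142 and 141 CPM at 50 and 70 minutes.

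Of the 5 genome activation factors none was higher and 2 were more than 1.5-fold lower, beside 11.6% and 6.77% of all genes. Of the 4 that reached 10 CPM, 2 were lower, beside 20.3% of all genes at that level. Clamp, which binds GA repeats, had 424 and 444 CPM and then 102 to 220 CPM in 70a and 263 to 381 CPM in 70b, and the acetyltransferase gene nej had means of 994 and 617 CPM. The means of zld, the pioneer factor Zelda, were 312 and 277 CPM and those of fs(1)h 119 and 92.0 CPM. Those of Trl, which overlaps CG33260 and CG42507 in the annotation, were 7.24 and 6.24 CPM.

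Over the 1223 genes that the study lists as maternal, the median difference was -0.56. Of them 598 were more than 1.5-fold lower and 41 higher, against 6.77% and 11.6% of all genes. Of the 786 that reached 10 CPM, 509 were lower and 16 higher, against 20.3% and 14% of all genes at that level. Limma called 154 of the 1123 fitted lower and 0 higher, beside 3.08% and 1.14% of all fitted genes. The list was chosen by the study partly for its decline in the control embryos of these data, which are other embryos than the arrested ones. Its members summed to 59123 CPM in the earlier arrested embryos and to 31737 CPM in the later ones. The median levels of the 1169 genes with single values were 17.9 CPM in 50a, 13.1 CPM in 50b, 9.05 CPM in 70a and 10.3 CPM in 70b.

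The opposite set was taken from the controls alone, as the 404 genes with under 1 CPM in control C12 and at least 10 CPM in control C14L. Their median difference was 0.90, with 285 more than 1.5-fold higher and 18 lower, and 264 were higher with their embryos apart and 8 lower. The shares of all genes were 11.6% and 6.77%, and with the embryos apart 19.8% and 11.0%. Of the 151 members that reached 10 CPM, 131 were higher and 6 lower, beside 14% and 20.3% of all genes at that level. Limma called 28 of 375 higher and 0 lower, beside 1.14% and 3.08% of all fitted genes. They summed to 3313 CPM at 50 minutes and 8049 CPM at 70 minutes. The median levels of the 388 genes with single values were 3.13 and 1.26 CPM in 50a and 50b and 5.19 and 5.36 CPM in 70a and 70b. Embryo 50a was above 50b in 340 of them and 50b above in 45, whereas at 70 minutes the split was 199 against 189. Over all 16042 genes with single values the splits were 8116 against 2509 and 5847 against 5514.

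Earlier work on haploid embryos had sorted zygotic genes into N/C ratio-dependent and time-dependent ones, and the study's lists of both were compared. Of the 80 N/C ratio-dependent genes found, 54 were more than 1.5-fold higher and 2 lower, beside 11.6% and 6.77% of all genes. Their median was 0.91. Of the 110 time-dependent genes 76 were higher and 3 lower, with a median of 1.10. Among members that reached 10 CPM, 47 of 62 and 66 of 88 were higher, and 2 were lower in each list. The shares of all genes at that level were 14% and 20.3%. Limma called 6 of 62 and 11 of 74 fitted genes higher, and 0 lower in both, beside 1.14% and 3.08% of all fitted genes. The 2 lists had summed means of 3593 and 7208 CPM, and of 4712 and 10284 CPM, at 50 and 70 minutes, and the difference between the lists was not tested.

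Long genes need more time to be transcribed, and their span in the annotation was therefore set against the same 404 genes, of which 400 had a span. The median difference was 0.82 for the 82 genes up to 2 kb, 0.91 for 97 genes of 2 to 5 kb, 1.02 for 62 genes of 5 to 10 kb, 0.84 for 58 genes of 10 to 20 kb, 0.96 for 74 genes of 20 to 50 kb and 0.91 for 27 genes over 50 kb. No order by span appears in the difference on the log2(CPM+1) scale, which understates changes of low genes. The genes over 50 kb had the lowest median levels of the classes, 1.21 CPM at 50 minutes and 2.06 CPM at 70 minutes. The level relative to control C14L was lowest in the longest class. Genes over 50 kb had a median of 1.39% of their C14L level at 50 minutes and 7.44% at 70 minutes, whereas the medians of the other classes lay between 5.36% and 8.85% at 50 minutes and between 13.1% and 26.1% at 70 minutes. Dscam1 was the gene over 50 kb with the largest difference.

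The E(spl) and Bearded genes, which answer to Notch and temper it, were the list with the lowest median, -0.83. Of 14 members found, 11 were more than 1.5-fold lower and 1 higher, but no member had its embryos apart and limma called none of the 13 fitted. Of all genes 6.77% were lower and 11.6% higher. Of the 10 members that reached 10 CPM, 7 were lower and 1 higher, beside 20.3% and 14% of all genes at that level. E(spl)mgamma-HLH had 53.1 CPM in 50a and 0.781 CPM in 50b, and 2.46 CPM in 70a and 0.0886 CPM in 70b. E(spl)m5-HLH had 124 and 5.51 CPM and then 43.6 and 7.62 CPM, and E(spl)m8-HLH 61.5 and 13.4 CPM and then 35.5 and 3.41 CPM. E(spl)m4-BFM had 366 and 73.6 CPM and then 232 and 31.3 CPM. In all 13 members with single values 50a was above 50b, and in 12 of them 70a was above 70b. Of the 3210 genes with single values that reached 10 CPM, 2271 and 1153 had these orders. Without 50a the differences of E(spl)mgamma-HLH, E(spl)mdelta-HLH, E(spl)m5-HLH, E(spl)m8-HLH and E(spl)m4-BFM turned positive, at 0.35, 0.47, 2.03, 0.50 and 0.83.

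**Figure D5:**
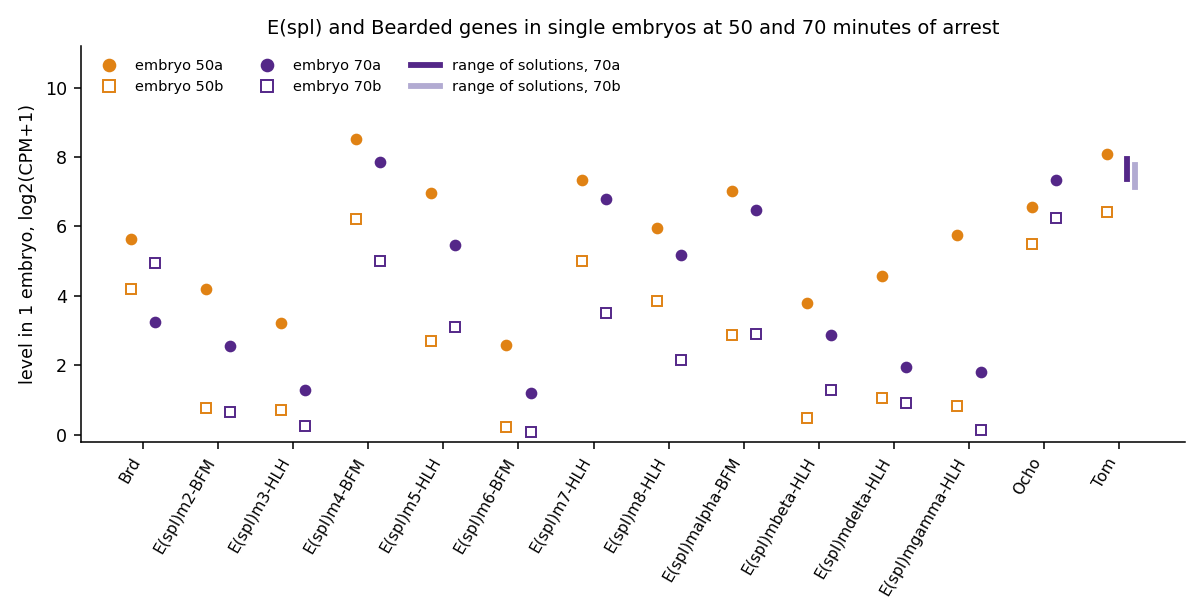
Levels of 14 E(spl) and Bearded genes in single embryos, log2(CPM+1) on the y axis, filled circles for the a embryos, open squares for the b embryos, and bars for the range of solutions of Tom at 70 minutes. At 50 minutes 50a lies above 50b in every gene, and the values of the 2 times overlap in each.

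Among the sex determination genes, the 2 embryos of 70 minutes were far apart in the X-linked switch gene Sxl. It had 189 and 329 CPM in 50a and 50b, and at 70 minutes 1023 to 1062 CPM in 70a but 33.1 to 72.5 CPM in 70b. The mean was 2.12-fold higher at 70 minutes, yet 70b lay below both 50-minute embryos. The male-promoting msl-2 had 22.8 and 10.46 CPM and then 23.0 and 42.6 CPM. The dosage compensation RNA roX1 had 225 and 133 CPM, and then 354 to 511 CPM in 70a and 140 to 298 CPM in 70b.

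Of the 6 genes of ecdysteroid synthesis, which the blastoderm switches on in pattern, phm rose from 9.64 and 5.79 CPM to 37.4 and 56.6 CPM (adjusted p 0.0197 by limma). For dib the values were 4.61 and 1.13 CPM and then 9.62 and 12.03 CPM. The mean of spo was 206 CPM at 50 minutes and 363 CPM at 70 minutes, and its embryos were not apart in every solution. The gene sad went the other way, with 103 and 55.8 CPM and then 37.8 and 35.0 CPM, and shd and nvd were below 10 CPM. Among 7 heat shock genes Hsp83 had 57.7 and 9.09 CPM and then 73.9 to 113 CPM in 70a and 111 to 150 CPM in 70b, and Hsp27 42.6 and 22.4 CPM and then 18.1 and 15.5 CPM. The 4 apoptosis genes were within 1.5-fold, rpr with means of 18.7 and 20.5 CPM, hid with 34.7 and 38.7 CPM and skl with 8.49 and 10.2 CPM, while grim stayed below 1 CPM. Of the 10 wound and immune genes puc alone reached 10 CPM, with 19.9 and 17.1 CPM and then 8.98 and 9.43 CPM.

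The reference genes gave the scale of what stayed level. Act5C had means of 5451 and 5348 CPM, alphaTub84B of 5779 and 6439 CPM, betaTub56D of 5355 and 6783 CPM and RpL32 of 1572 and 1675 CPM. None of the 87 cytoplasmic ribosomal protein genes differed by more than 1.5-fold, and their median difference was 0.10. Of 73 mitochondrial ribosomal protein genes 11 were higher and 3 lower, with a median of -0.06, beside 11.6% and 6.77% of all genes. Of the 55 that reached 10 CPM, 2 were higher and 3 lower, beside 14% and 20.3% of all genes at that level.

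The same genes were then read over the step from control C14E to control C14L, which shares no embryo with the arrested ones but spans a longer time. Of the 688 genes at the 10 CPM level that were higher at C12-70min, 451 (65.6%) were also more than 1.5-fold higher at C14L than at C14E and 81 (11.8%) lower. Of the 993 lower ones, 402 (40.5%) were lower at C14L and 217 (21.9%) higher. Over all 4903 genes at this level the shares at C14L were 25.7% higher and 28.1% lower. Over all 17735 genes they were 20% and 9.16%. List by list the steps were not alike. The gap genes had a median of 0.91 in arrest and of -1.39 in the control step, where 8 of 10 were lower. The segment polarity genes had 0.46 and 3.33, the E(spl) and Bearded genes -0.83 and 1.67, and the zygotic cellularization genes 0.31 and -4.42. The study's maternal genes had -0.56 and 0.02, with 303 higher and 338 lower in the control step. These differences between the steps were not tested.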

How the data were processed

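The authors aligned trimmed reads to dm6 with STAR 2.5.3a (unique alignments only), counted them with featureCounts of Subread 1.6.0 and used DESeq2 to obtain CPM, the reads of a gene scaled to a common library total. They deposited, for each of 17735 genes and 8 conditions, the log2 of the condition's mean CPM plus 1, and no column per embryo. A log2 value with 9 decimals fixes the mean closely enough to solve the whole reads of its 2 embryos, up to 1000 CPM. The solver and the limma step were tested on simulated data. The names a and b follow depth and are not the replicate numbers of the labels. The mean of control C12 is over 2 of 3 labelled embryos.

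Differences are of log2(CPM+1), with 1.5-fold as the limit. Limma 3.58.1 (R 4.3.3, trend, Benjamini-Hochberg) was run on the 4 embryos, for genes with a single solution in each condition and at least 1 CPM in 1 embryo. Nothing says that the embryos had separate mothers, so p-values measure only the spread between these embryos.

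Named genes are the 3 targets, the 10 largest higher and lower differences with at least 10 CPM in either condition, every member of lists of up to 6, and in longer lists the 4 largest differences and the 2 highest levels with at least 10 CPM. Other named genes were chosen after their values were seen. The members and lists were chosen with earlier results of these data known. The kit does not mark strand, so in the 55 of 121 named genes that overlap another gene, reads of the overlap cannot be told from that gene's. How such reads were assigned is not stated, and the levels of these genes may be too low or too high. Spans and coordinates are those of the Ensembl annotation of dm6. Python 3.11.15, pandas 2.3.3 and numpy 2.4.6 were used.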

Additional observations from a re-analysis of the deposited data

How the results depend on the processing

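By condition means, the 2058 higher genes became 4210 with a pseudocount of 0.1, 5677 with 0.001, 688 with at least 10 CPM in either condition and 995 at a fold above 2, and the 1200 lower genes became 2682 with 0.001 and 524 at a fold above 2. Over the genes with single values, leaving out 1 embryo gave 1310 to 2911 higher and 834 to 1421 lower genes. Limma's 73 higher genes became 199 with all 12 embryos of conditions with 2 embryos, 12 with at least 10 CPM in 1 embryo, 36 with a pseudocount of 0.1 and 980 after centring, and its 198 lower genes became 92 with at least 10 CPM in 1 embryo. Leaving out 1 embryo gave 53 to 1182 higher and 149 to 334 lower calls, the extremes being without 50b and 50a for the first and without 50b and 70b for the second. Without a filter on low values limma called 0 in either direction, with 1617 of 16042 genes at an unadjusted p under 0.05. With the widest solutions of genes that have several, an alternative chosen after seeing the data, it called 16 higher and 35 lower. The 3477 genes with the embryos apart on the higher side became 719 among genes with at least 10 CPM, also chosen after seeing the data. Leaving out 1 embryo turned the sign of 7 named differences past 1.5-fold (and of some smaller ones, such as sog), which ranged from -4.68 to 0.35 for E(spl)mgamma-HLH, -3.03 to 0.47 for E(spl)mdelta-HLH, -2.93 to 2.03 for E(spl)m5-HLH, -3.12 to 0.50 for E(spl)m8-HLH and -2.77 to 0.83 for E(spl)m4-BFM (turned without 50a, and for E(spl)m4-BFM also without 70b, at 0.08), from -0.59 (without 70b) to 1.96 for wntD and from -0.063 (without 50b) to 2.69 for nos. The cause was not tested beyond what each setting leaves out. No paired analysis was possible because the columns are condition means that carry no replicate numbers.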

Other observations

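Some RNAs were present in the arrested embryos at 70 minutes and scarce in every control condition. Of the 4639 genes that reached 10 CPM in these embryos, 18 had under 4 CPM in each of the 4 control means, a limit chosen after seeing the data. Besides Cyp309a1 and Cyp309a2 they include trh, the tracheal regulator trachealess, with 9.77 and 5.99 CPM at 50 minutes and 19.5 and 15.1 CPM at 70 minutes, and na, a sodium leak channel gene, with 2.34 and 0.39 CPM and then 13.6 and 12.3 CPM. GluRIIA, a glutamate receptor of muscle, had 36.7 and 6.21 CPM and then 36.2 and 21.1 CPM. Of the 18 genes 11 already had at least 4 CPM at 50 minutes.

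Among the 20 genes with the largest gap between the 2 embryos of a condition, 5 were common to both times. CG34334 had 1.99 CPM in 50a, 65.6 CPM in 50b, 64.4 CPM in 70a and 2.04 CPM in 70b, and hog had 1.49, 35.4, 20.2 and 0.664 CPM in the same order. The zinc finger gene salm had 33.0 and 4.77 CPM at 50 minutes and 14.5 and 90.7 CPM at 70 minutes, and the other two, E(spl)m5-HLH and E(spl)malpha-BFM, belong to the E(spl) and Bearded genes. The means of the 2 times hide these gaps.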
